A study of Mus musculus with 28 samples.

Results

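The genes described here are *C330046G13Rik*, *Neb*, *Pla2g4a*, *Gng2*, *Pla2g1b* and *Lad1*, 6 of the 20321 genes tested by RNA-seq and of the 37991 genes counted in naïve mouse embryonic stem (ES) cells. They were chosen by their measured fall in RNA level when *Kap1* was knocked down. The choice came from earlier results of these data, and its rule was rebuilt here as follows. In each genotype, genes were ranked by the log2 change between the *Kap1* hairpin and the empty hairpin. The ranking took genes that passed the test and had at least 500 reads over all libraries. It also required every *Kap1* knockdown library to lie below every control library. *C330046G13Rik* was among the 3 largest falls in wild-type (WT) and in TET TKO cells, *Neb* and *Pla2g4a* in TET TKO, and *Gng2*, *Pla2g1b* and *Lad1* in DNMT TKO. The other 2 of the 3 largest falls in WT, *Pramel7* and *Pramel6*, belong to a family of near-identical neighbours and are not described. A gene's change in the genotype that chose it is therefore given as a description with no p-value. Tests are given only in genotypes whose ranking did not choose it. That *Gng2*, *Pla2g1b* and *Lad1* were chosen in DNMT TKO alone is inferred from the rebuilt ranking. Their tests in WT and TET TKO rest on this. All 6 genes passed the filter of at least 16 reads over the 16 RNA libraries.

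The cells were of strain 129S4/SvJae and are all labelled as line J1, grown in serum-free medium with leukaemia inhibitory factor and inhibitors of MEK and GSK3 (2i). WT cells, cells lacking *Dnmt1*, *Dnmt3a* and *Dnmt3b* (DNMT TKO) and cells lacking *Tet1*, *Tet2* and *Tet3* (TET TKO) were transduced with a lentiviral vector carrying an empty hairpin (shEmpty) or a hairpin against *Kap1* (shKap1), selected with puromycin, and collected 5 days after transduction. There were 3 libraries for each hairpin in WT and in DNMT TKO and 2 in TET TKO, with 18108431 to 29373696 reads on genes each. The DNMT TKO and TET TKO cells came from different laboratories by the study's methods, and each genotype is 1 line. Genotype and line of origin thus cannot be told apart. A single *Kap1* hairpin was used, so loss of KAP1 and effects of that hairpin on other targets cannot be told apart either. The study's methods describe its replicates as independent experiments, and p-values of genes measure the spread between them. WT cells were also profiled by ChIP-seq for H3K4me3 and H3K27me3, with 2 replicates each, and by hMeDIP-seq for 5-hydroxymethylcytosine (5hmC) with both hairpins.

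KAP1, the product of *Trim28*, is a corepressor that KRAB zinc finger proteins bring to their DNA targets, many of them in transposable elements (TEs), where it helps lay down H3K9me3. DNMT enzymes write and keep DNA methylation, and TET enzymes oxidise 5-methylcytosine to 5hmC. Loss of KAP1 is best known for releasing silenced elements and genes near them. The genes described here were chosen for falls on knockdown, and whether these falls follow from that release was not tested. The study reports that cells stopped dividing and died within days of *Kap1* knockdown. The part of this in the falls was not tested. H3K4me3 marks active gene starts and H3K27me3 is the mark left by the Polycomb repressor.

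The 6 genes do not belong to a single pathway. *C330046G13Rik* is a long non-coding RNA gene, listed in RefSeq as *Platr7*, a pluripotency-associated transcript. It lies at chr10:84010162-84016083 of mm9 on the minus strand. *Neb* encodes nebulin, the giant protein that lines the actin thin filament of skeletal muscle, and lies at chr2:51992167-52194318 on the minus strand. *Pla2g4a*, at chr1:151676748-151808420 on the minus strand, encodes the cytosolic phospholipase A2 that frees arachidonic acid from membranes. *Pla2g1b*, at chr5:115916271-115924731 on the plus strand, encodes a secreted phospholipase A2 best known from pancreatic juice. *Gng2*, at chr14:20691781-20796849 on the minus strand, encodes a gamma subunit of heterotrimeric G proteins. *Lad1*, at chr1:137715175-137729918 on the plus strand, encodes ladinin, an anchoring filament protein of basement membranes. No gene on the same strand overlapped any of them, and counting used strand.

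The starts of the 6 genes differed widely in CG dinucleotides, the sites that DNMT and TET enzymes act on. Over 20148 promoters of tested genes, from 250 bases before the start to 50 after it, the median was 14 CG. The start is the outermost one annotated for each gene, and whether these cells use it was not tested. *C330046G13Rik* held 0 CG, as did 1.95% of promoters, *Pla2g1b* held 3, *Pla2g4a* 6, *Neb* 7 and *Gng2* 8. *Lad1*, with 18, was the only member above the median. The promoters with the lowest and the highest count, that of *Neb*, whose change differed most between genotypes, and the last 300 bases of an RLTR11A element upstream of *Pla2g1b* are given here for their CG content, read 5′ to 3′ on the strand of the gene from the mm9 reference, with CG in capitals. Their positions are chr10:84016034-84016333, chr1:137714925-137715224, chr2:52194269-52194568 and chr5:115915074-115915373, in that order.
C330046G13Rik promoter: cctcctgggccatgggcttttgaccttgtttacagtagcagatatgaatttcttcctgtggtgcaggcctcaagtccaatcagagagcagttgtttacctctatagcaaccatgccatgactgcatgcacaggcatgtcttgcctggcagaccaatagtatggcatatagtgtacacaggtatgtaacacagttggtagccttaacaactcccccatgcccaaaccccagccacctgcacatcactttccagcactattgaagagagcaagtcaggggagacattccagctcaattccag
Lad1 promoter: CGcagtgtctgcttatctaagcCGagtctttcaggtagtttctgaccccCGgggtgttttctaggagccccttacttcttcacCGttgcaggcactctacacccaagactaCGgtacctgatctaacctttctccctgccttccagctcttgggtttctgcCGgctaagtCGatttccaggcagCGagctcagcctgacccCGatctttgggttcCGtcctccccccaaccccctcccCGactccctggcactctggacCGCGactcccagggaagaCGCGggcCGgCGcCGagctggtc
Neb promoter: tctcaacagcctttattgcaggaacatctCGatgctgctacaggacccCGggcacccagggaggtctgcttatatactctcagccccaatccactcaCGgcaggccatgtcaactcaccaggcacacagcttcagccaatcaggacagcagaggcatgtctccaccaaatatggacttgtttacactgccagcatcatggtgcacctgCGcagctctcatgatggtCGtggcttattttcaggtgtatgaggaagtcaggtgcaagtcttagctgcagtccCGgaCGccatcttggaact
RLTR11A upstream of Pla2g1b: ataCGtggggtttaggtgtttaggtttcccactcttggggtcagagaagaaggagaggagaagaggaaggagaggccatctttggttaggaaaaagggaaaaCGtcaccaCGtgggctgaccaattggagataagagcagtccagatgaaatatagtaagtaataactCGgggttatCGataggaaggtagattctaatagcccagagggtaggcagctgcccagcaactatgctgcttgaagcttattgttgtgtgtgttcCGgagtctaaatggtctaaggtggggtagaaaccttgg

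**Figure D1:**
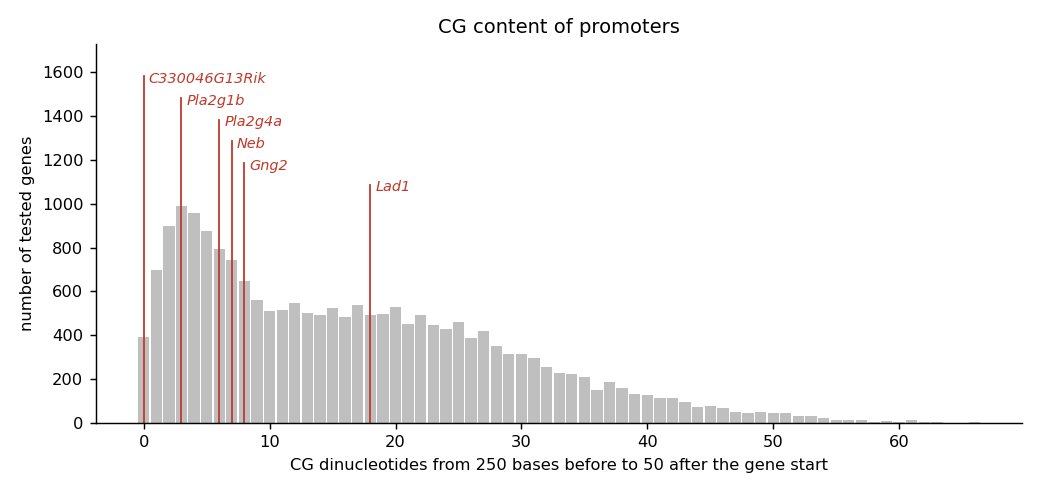
Number of tested genes (vertical axis) by the count of CG dinucleotides from 250 bases before to 50 after the gene start (horizontal axis). Red lines mark the 6 genes, with 0 CG for *C330046G13Rik*, 3 to 8 for *Pla2g1b*, *Pla2g4a*, *Neb* and *Gng2*, and 18 for *Lad1*, against a median of 14.

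The knockdown itself was checked in *Trim28*, the target of the hairpin. On the scale of reads per 1000000 after TMM scaling (CPM), *Trim28* stood at 1752 ± 207 in WT shEmpty and 165 ± 21.9 in WT shKap1 (SD, n = 3). It stood at 1868 ± 197 and 427 ± 91.5 in DNMT TKO (n = 3), and at 1835 ± 89.8 and 166 ± 3.84 in TET TKO (n = 2). The log2 change was -3.41 ± 0.16 (SE) in WT, -2.13 ± 0.15 in DNMT TKO and -3.47 ± 0.20 in TET TKO. The knockdown was thus less deep in DNMT TKO than in WT, by 1.28 ± 0.21 on the log2 scale (adjusted p = 8.0e-04, edgeR quasi-likelihood test with Benjamini-Hochberg adjustment, as for every adjusted p below). The part of this difference in the changes of the 6 genes was not tested.

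Of the 7 ES cell markers tested, the summed level lay between 3414 and 3764 CPM in shEmpty libraries and between 2167 and 2750 CPM in shKap1 libraries. *Sox2* changed by -1.34 and *Klf4* by -1.32 on the log2 scale in WT, while *Pou5f1* changed by -0.12. The muscle-specific factor *Myf5* was at 0 in every library, and *Myod1* was at 0 in 4 of the 6 groups. The summed muscle list, with 4 of 6 listed markers tested, was mostly *Mylpf*. That sum was 148 to 185 CPM in WT shEmpty and 90.7 to 107 CPM in WT shKap1, 117 to 129 and 102 to 107 CPM in DNMT TKO, and 84.8 to 105 and 111 to 114 CPM in TET TKO. Its part in the changes of *Neb* and other muscle genes given later was not tested. Summed markers of feeder fibroblasts (5 of 6 listed were tested) did not exceed 11.6 CPM. Those of trophoblast (5 of 6, without *Tfap2c*) did not exceed 25.7 CPM, and those of primitive endoderm (6 of 6) 18.5 CPM. In these bulk samples fewer cells of a type and less RNA per cell cannot be told apart, and the part of the fall in ES markers in the results below was not tested.

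In the genotypes that had not chosen them, most of the 6 genes fell as well. In WT, the 5 genes chosen elsewhere were all called lower on knockdown (adjusted p below 0.05 and at least 2-fold), against 6.54% of tested genes called lower. Among them, *Pla2g4a* met the rule of at least 500 reads only with its WT shEmpty reads. Its call in WT is thus not free of the choice. In TET TKO, *Gng2*, *Pla2g1b* and *Lad1* were called lower, against 4.46% of tested genes. In DNMT TKO, *C330046G13Rik* was called lower, against 2.41% of tested genes, whereas *Pla2g4a* and *Neb* were not. The choice of genes with many reads over all libraries favours genes that every genotype expresses, so these counts describe the 6 genes only.

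**Figure D2:**
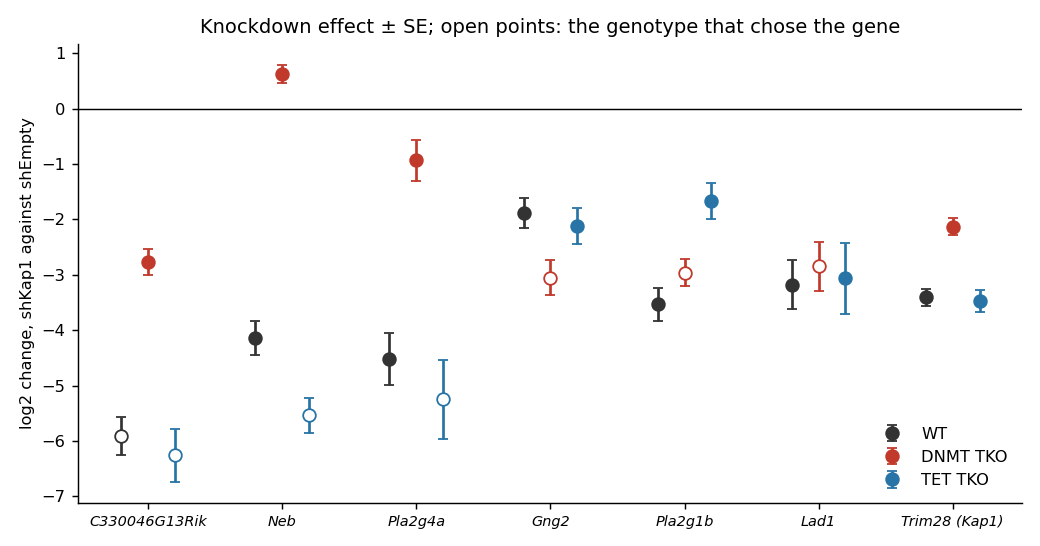
Log2 change on *Kap1* knockdown (vertical axis; bars, SE of the fit) of each gene in WT, DNMT TKO and TET TKO, with *Trim28* for reference. Open points mark the genotype that chose the gene and carry no test. *Neb* sits at 0.63 in DNMT TKO and at -4.14 and -5.54 in the other genotypes, while the 3 genes chosen in DNMT TKO lie below -1.6 in every genotype.

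*C330046G13Rik* lost nearly all of its reads in WT and TET TKO and part of them in DNMT TKO. In WT it had 12.6, 9.53 and 8.63 CPM in the shEmpty libraries and 0.21, 0.217 and 0.0533 CPM in the shKap1 libraries. In TET TKO it had 7.19 and 8.56 CPM in shEmpty and 0.185 and 0 CPM in shKap1. The rebuilt choice required separate groups in both genotypes. The knockdown libraries held 10 reads in all against 739 in WT and 4 against 432 in TET TKO. The level left was 1.65% of control in WT (95% interval 0.789 to 3.05) and 1.24% in TET TKO (0.336 to 3.2). These are exact intervals, which cover counting error only. The fitted log2 changes were -5.91 ± 0.35 and -6.26 ± 0.48 (SE), values that chose the gene. The TET TKO value rested on few reads and was -5.36 without shKap1 replicate 2, which had 0 reads. Without replicate 1 only that library is left, and the fitted -10.53 is no bound.

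In DNMT TKO, which did not choose it, *C330046G13Rik* had 9.75, 10.5 and 11.3 CPM in shEmpty and 1.15, 2.02 and 1.45 CPM in shKap1. Every knockdown library lay below every control library, and 14.5% of the control level was left (11.7 to 17.8). The log2 change was -2.77 ± 0.24 (adjusted p = 1.1e-07). This placed it just outside the 3 largest falls of DNMT TKO, where the third gene, *Lad1*, had -2.85 and the next after *C330046G13Rik*, *A230050P20Rik*, had -2.73. The difference of its knockdown effect between DNMT TKO and WT, 3.14 ± 0.49 on the log2 scale, shares the WT libraries that chose it and is a description. Without knockdown its level was 10.3 ± 2.08 CPM in WT, 10.5 ± 0.753 in DNMT TKO and 7.88 ± 0.97 in TET TKO (SD, n = 3, 3 and 2).

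*Neb* showed opposite directions in DNMT TKO and the other genotypes. In WT it had 4.05, 3.2 and 3.5 CPM in shEmpty and 0.315, 0.13 and 0.16 CPM in shKap1, a log2 change of -4.14 ± 0.31 (adjusted p = 6.0e-09). In DNMT TKO it had 6.14, 9.25 and 8.71 CPM in shEmpty and 11, 12.6 and 13.9 CPM in shKap1. All knockdown libraries of DNMT TKO were thus above all controls, with a log2 change of 0.63 ± 0.16 (adjusted p = 0.0054) that stayed under 2-fold. In TET TKO the level was 11.6 and 13.9 CPM in shEmpty and 0.231 and 0.308 CPM in shKap1, a log2 change of -5.54 ± 0.32 that chose the gene. The knockdown libraries thus kept 5.59% of the control level in WT (2.85 to 9.93) and 2.11% in TET TKO (1.05 to 3.79). In DNMT TKO they held 153% of it (138 to 170.1).

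The knockdown effect on *Neb* differed between DNMT TKO and WT by 4.77 ± 0.35 on the log2 scale (adjusted p = 5.8e-08), where 7.14% of tested genes differed. The genotypes also differed before knockdown, with 3.59 ± 0.432 CPM in WT shEmpty and 8.04 ± 1.66 in DNMT TKO shEmpty (SD, n = 3), a log2 difference of 1.18 ± 0.18 (adjusted p = 2.7e-05). In this comparison of control libraries 16.3% of tested genes differed. In TET TKO shEmpty, whose libraries chose the gene, the level was 12.7 ± 1.57 CPM (n = 2). That level is a description, since a choice by the largest fall favours a high control level.

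*Pla2g4a* was the lowest in reads of the 6, with 513 over all libraries. Of these, 239 were in WT shEmpty, and without them the gene would not have met the rule of at least 500 reads. The choice thus favours a high level in WT shEmpty, and adjusted p-values of *Pla2g4a* that use this group are not free of it. *Pla2g4a* had 2.28, 3.27 and 3.75 CPM in WT shEmpty and 0.0524, 0.0866 and 0.267 CPM in WT shKap1. The groups were separate, and the log2 change was -4.52 ± 0.47 (adjusted p = 4.1e-07). It was -5.34 ± 0.59 without WT shKap1 replicate 3, the highest knockdown library. In TET TKO it had 1.69 and 2.4 CPM in shEmpty and 0.0926 and 0 CPM in shKap1. With 2 reads against 112, the level left was 2.39% with a wide interval of 0.286 to 8.84%, and the fitted log2 change of -5.25 ± 0.72 that chose the gene moved to -4.38 without shKap1 replicate 2, the library at 0, and to -8.59 without replicate 1, which leaves 0 reads.

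In DNMT TKO *Pla2g4a* had 0.812, 1.83 and 1.31 CPM in shEmpty and 0.48, 0.846 and 0.779 CPM in shKap1. Here the groups overlapped, since the highest knockdown library exceeded the lowest control, and 51.4% of the control level was left (35.8 to 72.9). The log2 change of -0.93 ± 0.37 did not pass the test (adjusted p = 0.06). It became -1.18 ± 0.36 (adjusted p = 0.017) when DNMT TKO shEmpty replicate 1, the lowest control, was left out. The effect differed from that in WT by 3.59 ± 0.65 on the log2 scale (adjusted p = 7.4e-04), or 4.39 ± 0.76 without WT shKap1 replicate 3. Before knockdown *Pla2g4a* was lower in DNMT TKO than in WT, by -1.21 ± 0.31 on the log2 scale (adjusted p = 0.0038), at 1.32 ± 0.509 against 3.1 ± 0.752 CPM (SD, n = 3). That difference fell just under 2-fold, to -0.97, without DNMT TKO shEmpty replicate 1. Both differences from WT use the WT shEmpty reads with which the gene met the read rule.

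*Pla2g1b*, the other phospholipase, had the highest level per length of the 6 in WT. Its shEmpty libraries stood at 26.6, 14.1 and 15.0 CPM in WT, and its shKap1 libraries at 2.15, 1.13 and 1.55 CPM. The groups did not overlap, with a log2 change of -3.53 ± 0.30 (adjusted p = 2.1e-07). In DNMT TKO the levels were 42.0, 35.9 and 30.3 CPM in shEmpty and 3.55, 4.94 and 5.3 CPM in shKap1, a log2 change of -2.96 ± 0.25 that chose the gene. In TET TKO they were 9.87 and 10.4 CPM against 3.8 and 2.51 CPM, a log2 change of -1.67 ± 0.33 (adjusted p = 0.0014). Knockdown libraries thus kept 9.03% of the control level in WT (7.27 to 11.1), 13.1% in DNMT TKO (11.6 to 14.7) and 31.5% in TET TKO (25.9 to 38.2).

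The smaller fall of *Pla2g1b* in TET TKO than in WT, a difference of 1.86 ± 0.46 on the log2 scale (adjusted p = 0.021), was called where 4.21% of tested genes differed. It lost the call with limma-voom (adjusted p = 0.057), with a filter of 1 read in place of 16 (0.057), and without any of WT shKap1 replicate 2 or 3, either TET TKO shEmpty library or TET TKO shKap1 replicate 1 (0.05 to 0.15). Without knockdown the TET TKO level was lower than that of WT by -0.86 ± 0.27 on the log2 scale (adjusted p = 0.027), which is under 2-fold, where 10.5% of tested genes were called. It passed 2-fold, at -1.03 (adjusted p = 0.013), without WT shEmpty replicate 2.

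*Gng2* fell in all 3 genotypes. In WT it had 30.5, 13.2 and 13.3 CPM in shEmpty and 5.92, 4.59 and 4.74 CPM in shKap1, a log2 change of -1.89 ± 0.27 (adjusted p = 4.1e-05). WT shEmpty replicate 1 stood well above the other controls, but the groups did not overlap. In TET TKO *Gng2* had 19.8 and 20.6 CPM against 4.44 and 4.88 CPM, a log2 change of -2.12 ± 0.33 (adjusted p = 1.8e-04). In DNMT TKO, which chose it, it had 15.1, 12.8 and 12.3 CPM against 1.73, 1.41 and 1.67 CPM, or -3.05 ± 0.31 on the log2 scale. Libraries numbered 1 were the highest of their group in WT and DNMT TKO with both hairpins. The effects in TET TKO and WT differed by -0.23 ± 0.42 with an interval of -1.06 to 0.60 (adjusted p = 0.81). The control levels of these lines differed by 0.11 ± 0.27 on the log2 scale (interval -0.42 to 0.63, adjusted p = 0.83). Both values depended on WT shEmpty replicate 1. Without it the effects differed by -0.73 ± 0.21 (adjusted p = 0.031) and the control levels by 0.61 ± 0.14 (adjusted p = 0.0028), each under 2-fold.

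*Lad1* fell in the 3 genotypes from control levels that varied between and within lines. In WT it had 17.1, 27.8 and 28.0 CPM in shEmpty and 1.21, 3.38 and 3.41 CPM in shKap1, a log2 change of -3.18 ± 0.44 (adjusted p = 6.7e-05). In DNMT TKO it had 8.58, 21.9 and 19.5 CPM against 1.06, 3.2 and 2.67 CPM, a log2 change of -2.85 ± 0.44 that chose it. Libraries numbered 1 were the lowest of their group in both genotypes and with both hairpins. In TET TKO the levels were 8.71 and 7.62 CPM against 1.02 and 0.924 CPM, a log2 change of -3.06 ± 0.64 (adjusted p = 0.0029). The effect in TET TKO minus that in WT was 0.12 ± 0.86 on the log2 scale, with a wide interval of -1.57 to 1.80 (adjusted p = 0.97). Control levels were lower in TET TKO than in WT, by -1.58 ± 0.44 (adjusted p = 0.018), a call that was lost without any of WT shEmpty replicate 2 or 3 or either TET TKO control (adjusted p 0.05 to 0.13).

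**Figure D3:**
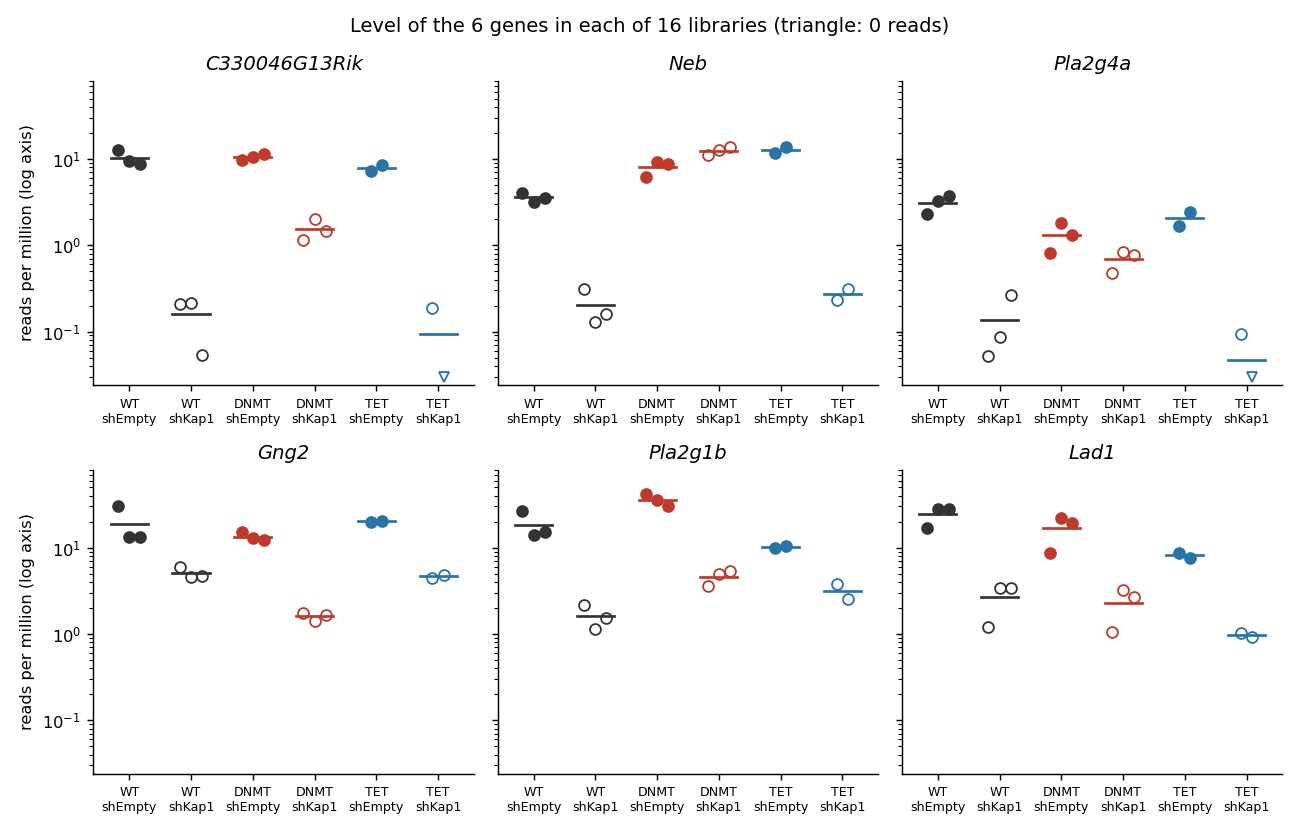
CPM (log axis) of each gene in every RNA library, by genotype and hairpin, with filled points for shEmpty, open points for shKap1, lines for group means and triangles for libraries with 0 reads. In WT every shKap1 library lies below every shEmpty library for all 6 genes; in DNMT TKO the order is turned for *Neb* and the points of *Pla2g4a* overlap.

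Per kilobase of exon, the 6 genes spanned a wide range in WT control cells. *Pla2g1b* was the highest with 26.0 ± 9.81 CPM per kb (SD, n = 3), followed by *Lad1* with 8.12 ± 2.08, *C330046G13Rik* with 7.69 ± 1.56 and *Gng2* with 4.33 ± 2.28. *Pla2g4a*, with 0.485 ± 0.118, and *Neb*, with 0.136 ± 0.0164, were far lower. *Lad1* and *C330046G13Rik* differed by less than their spread, and the libraries of *Gng2* overlapped with them on this scale only through replicate 1. In WT shKap1 libraries the order began with *Pla2g1b* at 2.25 ± 0.722 CPM per kb, then *Gng2* at 1.16 ± 0.166 and *Lad1* at 0.891 ± 0.422, which differed by less than their spread.

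Chromatin at the starts of the 6 genes in WT cells set them apart from one another. H3K4me3 regions called in both replicates lay within 2 kb of the start of *C330046G13Rik* and *Lad1*, 2 of the 6, where 70.7% of tested genes had one. With peaks above the median score of each replicate, 1 of the 6, *Lad1*, kept its region, where 60.2% of tested genes had one. *Lad1* was also the only one of the 6 with an H3K27me3 region there, as for 17.6% of tested genes. The H3K4me3 region of *Lad1* ran from 570 bases before to 778 bases after its start, inside an H3K27me3 region from 2374 bases before to 1424 after it. The H3K4me3 regions of *C330046G13Rik* ran from 700 to 92 bases before its start and from 52 bases before to 121 after it. *Pla2g1b* had its only shared H3K4me3 region inside the gene, 4167 to 4995 bases after the start. Replicate 2 alone held a region 1332 to 556 bases before the start of *Pla2g1b*, over the RLTR11A element. *Neb*, *Pla2g4a* and *Gng2* had no H3K4me3 region in the gene or within 2 kb of its start in either replicate. The nearest to *Gng2* was in replicate 2 alone, 8.63 kb before its start. Replicate 2 alone called H3K27me3 regions inside *Neb*, the first 35719 to 37317 bases after the start.

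None of the KAP1 regions over which the study counted 5hmC lay within 2 kb of the start of the 6 genes or inside them, where 5.57% and 15.3% of tested genes had one. The same held for regions that lose H3K9me3 on *Kap1* loss, for which the shares of tested genes were 1.67% and 7.96%. The nearest KAP1 region lay 6.12 kb past the end of *Pla2g4a*, 7.12 kb past the end of *Gng2* and 8.57 kb past the end of *Neb*. Regions that lose H3K9me3 lay beside those of *Gng2* and *Neb*, 6.78 and 7.17 kb past the gene end. For *Lad1* the nearest KAP1 region was 19.1 kb before the start, for *Pla2g1b* 105 kb and for *C330046G13Rik* 191 kb. These distances from gene ends are a description, with no test.

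5hmC reads were counted at the shared regions of *C330046G13Rik*, *Pla2g1b* and *Lad1*, from 1 hMeDIP-seq library per hairpin in WT cells. At the H3K4me3 region inside *Pla2g1b*, 5hmC libraries held 10 reads with shEmpty and 25 with shKap1, and the log2 change, with each library scaled to its own total over the deposited region sets and a pseudocount of 1 read, was 1.07 (counting interval 0.05 to 2.09). Input libraries held 14 and 15 reads there, and the changes given here are not corrected for input. At *Lad1* it was 0.68 (-0.23 to 1.59) over the H3K4me3 region, from 14 and 26 reads, and 0.51 (0.03 to 0.99) over the H3K27me3 region, from 55 and 89 reads. Input held 33 reads with shEmpty and 22 with shKap1 over the former, and 70 and 101 over the latter. The medians over all such regions were 0.26 for H3K4me3 and 0.12 for H3K27me3. Summed over all 5 regions of the 3 genes, where the *Lad1* regions overlap, the log2 change was 0.65. Scaled to H3K4me3 regions alone it was 0.38, and the intervals at *Pla2g1b* (0.80, -0.22 to 1.82) and at the H3K27me3 region of *Lad1* (0.24, -0.24 to 0.72) then included 0. The 5hmC libraries held at most 2 reads at either region of *C330046G13Rik*, too few to read a change. With shEmpty the 5hmC library held fewer reads than input at each region, so no 5hmC above input was shown in control cells. Over all H3K4me3 regions it also held fewer (616494 against 878839), and over all H3K27me3 regions more (1542442 against 1168701). With 1 library per hairpin there is no replicate check of these values. A second hMeDIP replicate was not analysed here, because its labels and its file names give its 4 libraries different roles.

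Among TE integrants within 10 kb of the genes and in their orientation, the one with the most reads was the RLTR11A element, a long terminal repeat of the ERVK class, at chr5:115914944-115915373. It lies 1327 to 898 bases before the start of *Pla2g1b* in the same orientation and gathered 909 reads over all libraries. In WT it had 4.94, 2.35 and 3.4 CPM in shEmpty and 0.577, 0.433 and 0.107 CPM in shKap1, a log2 change of -3.21 ± 0.30 (adjusted p = 3.4e-25 over all integrants tested). *Pla2g1b*, with the same SE and a larger change, had an adjusted p of 2.1e-07 among genes. P-values of integrants thus lean on a spread pooled over integrants and do not measure that of each element. In TET TKO it had 2.11 and 1.43 CPM against 0.926 and 0.154 CPM, a log2 change of -1.67 ± 0.35 (adjusted p = 3.2e-05). The element fell by -2.98 ± 0.25 in DNMT TKO, from 6.8, 5.9 and 5.94 CPM to 0.48, 0.752 and 1.08 CPM, where *Pla2g1b* was chosen. Its changes thus lay close to those of *Pla2g1b* itself, -3.53 in WT, -2.96 in DNMT TKO and -1.67 in TET TKO. The counts do not say whether the reads of the element and the gene come from the same transcript.

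The whole RLTR11A element held 8 CG in 430 bases, or 1.86 per 100 bases, more than 98.7% of the 1910 copies of RLTR11A of at least 100 bases in the genome, whose median was 0.413 per 100. Of the 51 RLTR11A copies tested, 5 were called lower and 6 higher in WT, 4 lower and 7 higher in DNMT TKO, and 1 lower and 10 higher in TET TKO. Over all integrants tested, 2.05%, 0.944% and 0.971% were called lower in that order of genotypes, and 12.1%, 15.0% and 14.7% were called higher. This family was looked at after the value of the element near *Pla2g1b* was known, and each count of lower calls includes that element.

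The other integrants in the same orientation mostly lay inside *C330046G13Rik* and *Pla2g1b*, where they can count reads of the gene itself. Of 18 integrants tested around *Pla2g1b*, 13 were called lower in WT, against 2.05% of all integrants tested, and 2 in TET TKO, against 0.971%. Of 10 around *C330046G13Rik*, 5 were called lower in DNMT TKO, against 0.944%. One of these, a B1_Mur4 SINE past the annotated end of *C330046G13Rik*, 6816 to 6949 bases from its start, had 0.762, 0.725 and 0.771 CPM in DNMT TKO shEmpty and 0, 0.0941 and 0.0742 CPM in shKap1, a log2 change of -3.58 ± 0.60 (adjusted p = 5.8e-08). The 15 integrants around *Neb* were all in the opposite orientation. The most abundant of them, an L1Md_F element past the 3′ end with 2419 reads, changed by 0.21 ± 0.18 in WT and 0.32 ± 0.19 in DNMT TKO. An L1_Rod element inside *Neb* with 36 reads over all libraries changed by -0.85 ± 0.85 in WT. In TET TKO its change of -3.42 ± 1.14 came from 1 library, with 0.0352 and 0.601 CPM in shEmpty and 0 and 0.0513 CPM in shKap1, and the groups overlapped.

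**Figure D4:**
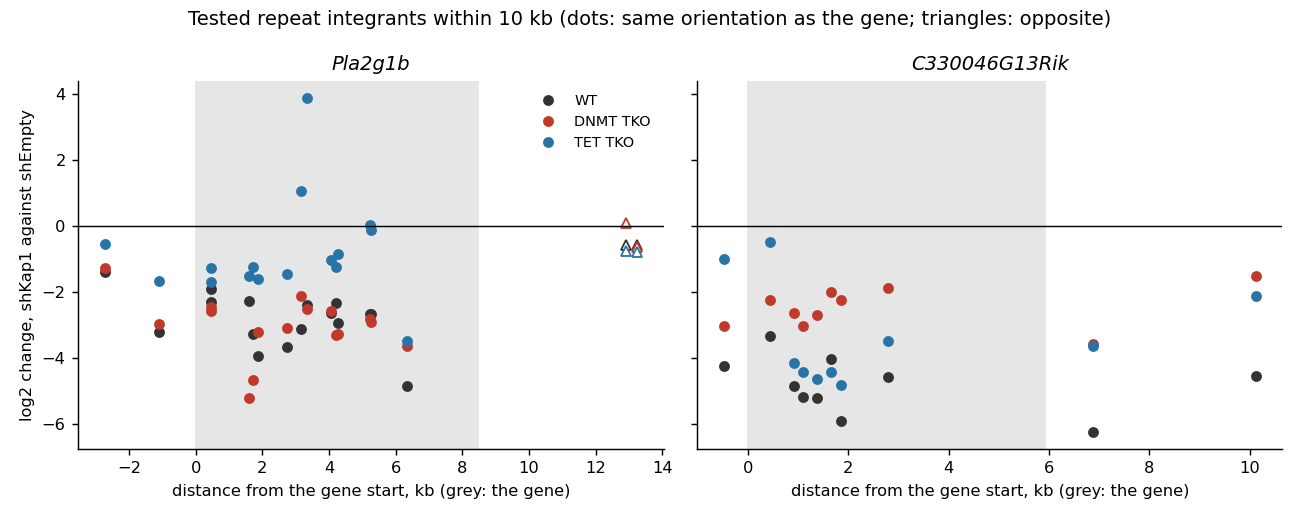
Log2 change on knockdown (vertical axis) of TE integrants tested within 10 kb of *Pla2g1b* and *C330046G13Rik* against distance from the gene start in kb, with colours for genotypes, dots for the orientation of the gene and triangles for the opposite one. Dots lie below 0, inside the gene (grey) and outside it, except for 3 in TET TKO at *Pla2g1b*.

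Neighbouring genes gave a second view of the loci. Of 24 tested genes within 100 kb of the 6, 3 were called lower in each genotype, where 6.54%, 2.41% and 4.46% of all tested genes were called lower in WT, DNMT TKO and TET TKO. *Ckap4*, which encodes a membrane protein of the endoplasmic reticulum, lies 13.4 kb past the end of *C330046G13Rik* on the same strand and fell in all genotypes. It had 109, 117 and 114 CPM in WT shEmpty and 17.6, 22.0 and 23.0 CPM in WT shKap1, a log2 change of -2.44 ± 0.10 (adjusted p = 5.6e-12), and changed by -1.86 ± 0.10 in DNMT TKO (2.3e-10) and -2.64 ± 0.13 in TET TKO (7.2e-11). Its smallest change was in DNMT TKO, as for *C330046G13Rik*, a difference that was not tested. The neighbours on the other side, *Tcp11l2* at 23.3 kb, *Gm17249* at 66.0 kb and *Polr3b* at 69.1 kb before the start, changed by 0.05 ± 0.17, -0.67 ± 0.27 (adjusted p = 0.053) and -0.39 ± 0.06 in WT. *Gm17249* changed by 0.59 ± 0.32 in TET TKO (0.19).

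*Lad1* lies between *Tnni1* and *Tnnt2*, genes of the troponin complex of muscle thin filaments, on the same strand as both. *Tnni1*, 7.61 kb before *Lad1*, had 4.05, 7.43 and 7.54 CPM in WT shEmpty and 0.367, 0.779 and 0.64 CPM in WT shKap1. Its log2 change was -3.40 ± 0.57 in WT (adjusted p = 3.0e-04), -2.19 ± 0.42 in DNMT TKO (0.0013) and -4.26 ± 0.90 in TET TKO (0.0028). Like *Lad1*, *Tnni1* was lowest in the libraries numbered 1 of WT and DNMT TKO. *Tnnt2*, 7.53 kb past the end of *Lad1*, had 0.5, 0.711 and 1.2 CPM in WT shEmpty and 0.105, 0 and 0.0533 CPM in WT shKap1, and changed by -3.93 ± 0.90 (adjusted p = 0.0018). In DNMT TKO and TET TKO *Tnnt2* did not pass the test, at -0.80 ± 0.44 (0.17) and -1.54 ± 0.97 (0.26). Further away, *Phlda3* changed by 0.22 ± 0.07 in WT, 0.37 ± 0.07 in DNMT TKO and 0.51 ± 0.08 in TET TKO. *Csrp1* changed by 0.15 ± 0.09 in WT, -0.45 ± 0.09 in DNMT TKO (adjusted p = 5.1e-04) and -0.44 ± 0.11 in TET TKO (0.0044), under 2-fold in each.

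At *Neb*, *Rif1*, 14.3 kb past the 3′ end, changed by 0.13 ± 0.06 in WT and -0.04 ± 0.06 in DNMT TKO. At *Pla2g1b*, *Sirt4*, 3.29 kb past its end, changed by -0.52 ± 0.18 in WT (adjusted p = 0.029, under 2-fold) and *Msi1*, 10.6 kb before its start, by -0.49 ± 0.19 (0.054). At *Gng2*, all 3 tested neighbours had negative changes in WT and DNMT TKO. *Nid2*, a basement membrane gene 60.8 kb past the end, changed by -0.95 ± 0.08 in WT and -0.97 ± 0.08 in DNMT TKO and was called in TET TKO at -1.05 ± 0.10, close to the 2-fold threshold (-0.99 without TET TKO shEmpty replicate 2). *2700060E02Rik*, 48.7 kb past the end, changed by -0.58 ± 0.06 in WT (adjusted p = 2.5e-07, under 2-fold), -0.52 ± 0.06 in DNMT TKO and -0.42 ± 0.07 in TET TKO. *1810063B07Rik*, 98.0 kb before *Gng2*, changed by -0.70 ± 0.21 in WT and 0.33 ± 0.27 in TET TKO and was called in DNMT TKO at -1.04 ± 0.26 (-0.98 without shEmpty replicate 3, -0.92 without shKap1 replicate 1). *Pla2g4a* had no tested neighbour within this distance.

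**Figure D5:**
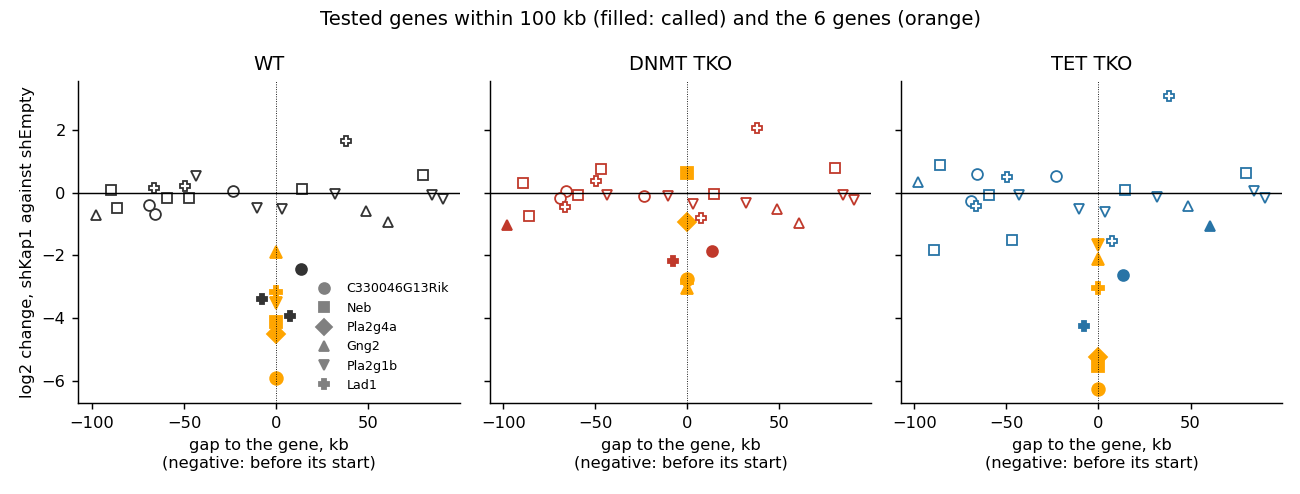
Log2 change on knockdown (vertical axis) of the 24 tested neighbours against the gap to the gene in kb (negative before its start), with a symbol for each of the 6 genes, filled symbols for called neighbours, orange symbols for the 6 genes themselves and a panel for each genotype. *Ckap4* and *Tnni1* are filled in all 3 panels. *Ckap4* lies at -2.44 in WT, where *C330046G13Rik* is at -5.91. *Pla2g4a* is shown without neighbours.

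Related genes were counted for the 5 protein-coding members. Of the 18 other phospholipase A2 genes tested, 2 were called higher and 2 lower in WT, 1 and 1 in DNMT TKO, and 1 and 2 in TET TKO, with medians of 0.01, 0.01 and 0.09 on the log2 scale against -0.01, 0.02 and -0.01 over all tested genes. Of all tested genes, 10.8% were called higher and 6.54% lower in WT, 10.1% and 2.41% in DNMT TKO, and 8.05% and 4.46% in TET TKO. *Pla2g4e*, of the same cytosolic family as *Pla2g4a*, fell from 22.6 ± 1.03 to 7.95 ± 1.37 CPM in WT (log2 -1.51 ± 0.12, adjusted p = 1.6e-08), and *Pla2g4f* was called in DNMT TKO (-1.17 ± 0.27, 0.0027) but not in WT (-0.62 ± 0.32, 0.13). The falls called in TET TKO, *Pla2g4f* (-1.19 ± 0.43, 0.042) and *Pla2g7* (-1.37 ± 0.48, 0.038), were lost without any 1 of its 4 libraries (adjusted p = 0.054 to 0.31 and 0.096 to 0.19). In WT the other call was *Pla2g2f*, with 75 reads in all, lost with a filter of 1 read (0.062), DESeq2 (0.1), the replicate block (0.056) and without any WT library but shEmpty replicate 2 (0.072 to 0.094). Of the secreted forms, *Pla2g5* rose from 3.0 ± 0.314 to 7.98 ± 1.94 CPM in WT (log2 1.41 ± 0.19, adjusted p = 6.9e-06) and *Pla2g12b* from 0.154 ± 0.16 to 1.42 ± 0.834 CPM (2.99 ± 0.55, 2.3e-04). The rise of *Pla2g12b* in DNMT TKO (1.62 ± 0.58, 0.037) was lost with limma-voom (0.069), DESeq2 (0.051) and without any of 5 libraries of that genotype (0.06 to 0.18).

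Among 14 genes of eicosanoid metabolism, which include *Alox5ap*, the gene of a helper protein of 5-lipoxygenase, and *Hpgd*, whose enzyme inactivates prostaglandins, 2 were called higher and 4 lower in WT, 2 higher in DNMT TKO, and 2 higher and 3 lower in TET TKO. Over all tested genes 10.8%, 10.1% and 8.05% were called higher in that order of genotypes, and 6.54% lower in WT and 4.46% in TET TKO. The medians were -0.18, -0.03 and 0.04 on the log2 scale. Of these calls, *Alox12b* in WT (48 reads), *Alox5* in TET TKO and *Alox5ap* in WT were lost with another tool (adjusted p = 0.095 and 0.073 with DESeq2, 0.057 with limma-voom) and without WT shKap1 replicate 1 (0.099 and 0.12) or any TET TKO library (0.057 to 0.23). *Ptgs2*, the inducible cyclooxygenase, fell from 5.28 ± 0.976 to 0.486 ± 0.183 CPM in WT (log2 -3.46 ± 0.31, adjusted p = 5.7e-08) and from 4.11 ± 0.716 to 0.658 ± 0.0135 CPM in TET TKO (-2.64 ± 0.36, 1.9e-05). In DNMT TKO its level was low with either hairpin, at 0.835 ± 0.189 and 0.873 ± 0.344 CPM. The prostaglandin E synthase gene *Ptges* and the lipoxygenase gene *Alox12* had the same calls, falling in WT (-1.56 ± 0.23 and -1.85 ± 0.17) and TET TKO (-1.29 ± 0.27 and -1.29 ± 0.19), with -0.33 ± 0.23 and 0.03 ± 0.15 in DNMT TKO. Differences of these effects between genotypes were not tested here. *Alox15*, another lipoxygenase gene, rose in all 3 genotypes, by 4.93 ± 0.79, 3.04 ± 0.59 and 6.01 ± 0.82 on the log2 scale from control means of at most 0.403 CPM.

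Of 14 other G protein beta and gamma subunit genes, 2 were called higher in WT, 1 higher and 1 lower in DNMT TKO, and 3 higher and 1 lower in TET TKO. The shares over all tested genes were 10.8%, 10.1% and 8.05% higher, and 2.41% and 4.46% lower in DNMT TKO and TET TKO. The medians were 0.60, -0.01 and 0.38 on the log2 scale. Calls of *Gng11* in WT and DNMT TKO and of *Gng8* in TET TKO, genes with 77 and 73 reads in all, were lost with DESeq2 (0.062, 0.089 and 0.091) and without any of 4, 2 and 4 libraries (0.057 to 0.074, 0.085 to 0.1 and 0.051 to 0.22). *Gnb4* rose in WT from 5.03 ± 0.224 to 11.3 ± 0.818 CPM (log2 1.16 ± 0.12, adjusted p = 5.1e-07), and *Gng13* in TET TKO from 0.413 ± 0.213 to 4.04 ± 0.704 CPM (3.26 ± 0.45, 2.0e-05). *Gng7* moved the same way as *Gng2*, by -0.75 ± 0.18 in WT, under 2-fold, and by -1.07 ± 0.18 in DNMT TKO and -1.17 ± 0.25 in TET TKO, where it was called. The DNMT TKO call was lost at -0.94 without shEmpty replicate 2 and without shKap1 replicate 1.

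Of 21 other thin filament and sarcomere genes, 3 were called lower in WT, 4 higher and 1 lower in DNMT TKO, and 2 lower in TET TKO, with medians of 0.24, 0.24 and -0.02. Over all tested genes 6.54%, 2.41% and 4.46% were called lower in that order, and 10.1% higher in DNMT TKO. The call of *Nebl*, which encodes the nebulin relative nebulette, in TET TKO (-1.18 ± 0.43, adjusted p = 0.044) was lost with limma-voom (0.052), DESeq2 (0.1), a filter of 1 read (0.064) and without any TET TKO library (0.091 to 0.2). In DNMT TKO *Nebl* rose by 1.54 ± 0.33 (adjusted p = 0.0013). That of *Lmod3* in DNMT TKO (1.25 ± 0.39, 0.018) was lost with DESeq2 (0.072) and without shEmpty replicate 2 (0.056), shEmpty replicate 3 or shKap1 replicate 3 (0.059 each). Besides the troponin genes beside *Lad1*, *Lmod1*, a leiomodin that nucleates actin, fell in WT by -2.08 ± 0.52 (adjusted p = 0.0032) from 0.779 ± 0.211 CPM. *Lmod1* was called higher in DNMT TKO at 1.32 ± 0.49 (adjusted p = 0.046), a call lost with limma-voom (0.077), DESeq2 (0.066) and without any library of that genotype (0.068 to 0.11). *Tmod2*, which caps filament ends, rose in DNMT TKO by 1.16 ± 0.15 (1.0e-05) and changed by 0.49 ± 0.15 in WT.

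Of 14 other hemidesmosome and basement membrane genes, 1 was called lower in WT, 1 higher and 2 lower in DNMT TKO, and 1 higher and 1 lower in TET TKO, with medians of 0.10, 0.16 and -0.04. Over all tested genes 6.54%, 2.41% and 4.46% were called lower in that order, and 10.1% and 8.05% higher in DNMT TKO and TET TKO. *Lama3*, a laminin chain gene, fell in all genotypes, from 17.2 ± 0.86 to 2.25 ± 0.449 CPM in WT (log2 -2.92 ± 0.14, adjusted p = 3.6e-11), and by -1.30 ± 0.12 in DNMT TKO (1.8e-07) and -2.61 ± 0.16 in TET TKO (2.3e-09). *Col17a1* was called lower in DNMT TKO (-1.32 ± 0.39, 0.015), *Lamb3* higher there (1.85 ± 0.36, 6.3e-04), and *Dst* higher in TET TKO (1.02 ± 0.11, 2.2e-06), just past 2-fold. The call of *Col17a1* was lost without DNMT TKO shEmpty replicate 3 (adjusted p = 0.076) or shKap1 replicate 1 (0.062), and that of *Dst* without TET TKO shEmpty replicate 1 (0.85) or shKap1 replicate 1 (0.96 on the log2 scale).

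Over the 16 libraries, the genes whose log2 CPM followed each member most closely, among 13505 genes with at least 500 reads, are given as a description, since the libraries that chose the members are among the 16. Of the 18 genes named, 4 were also among the 3 most like by Spearman's rho and 0 after genotype means were removed. *C330046G13Rik* was most like *Trim28*, the gene targeted by the hairpin (Pearson's r = 0.975), then *Pramef12* and *Cobl* (both 0.971). By Spearman's rho *Trim28* ranked 146 and *Cobl* 411. After genotype means were removed, their r was 0.982 and 0.974, at ranks 7 and 24. *Neb* was most like *Arfgef2* (0.959), *Notch1* (0.958) and *Slco4c1* (0.957), and *Pla2g4a* like *Odf2* (0.962), *Gjb5* and *Cep192* (both 0.951). *Gng2* was most like *Tardbp* (0.973), *Zfp64* (0.968) and *Chaf1a* (0.965), *Pla2g1b* like *Notum* and *Mcm3* (both 0.977) and *Arhgap17* (0.973), and *Lad1* like *Apeh* (0.98), *Ppm1m* (0.966) and *Onecut2* (0.964). Several of these changed far less than the member they followed, such as *Apeh* with -0.43 in WT and *Tardbp* with -0.30 on the log2 scale. Between members r ran from 0.152 for *Neb* and *Gng2* to 0.927 for *C330046G13Rik* and *Pla2g4a*. The libraries share groups, so these values also read the group means, in a part that was not tested.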

How the data were processed

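RNA-seq values are read counts that the authors made and deposited. By the study's methods, reads were aligned to mm9 with HISAT2, kept when unique and counted by strand, over exons with featureCounts (per the submitters' notes 1.5.1, per the file headers 1.5.0-p1) and over a RepeatMasker-derived TE track with bedtools multicov. Peak positions of H3K4me3 (MACS) and H3K27me3 are deposited with a score by the authors, used only to choose peaks above its median. By the study's methods peaks were called with MACS, or with SICER for H3K9me3, and the H3K27me3 headers name no program. The 5hmC values are read counts that the authors made over region sets.

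Genes and integrants with at least 16 reads over the 16 RNA libraries were tested with edgeR 4.0.16 (TMM, robust quasi-likelihood F test, 1 model over the 6 groups, Benjamini-Hochberg within each contrast; integrants took the library sizes of the genes). Features were called at an adjusted p under 0.05 and a change of 2-fold or more. SEs of the fit are the absolute log2 change divided by the square root of the F statistic. They and the intervals on log2 changes built from them are approximate. Alternatives were other filters, no fold threshold, limma-voom (limma 3.58.1), DESeq2 1.42.0 and other scalings. Further ones were a replicate block, a fit of only the groups compared and leaving out each library. The script was tested on simulated data. Where same-numbered libraries correlated above 0.1 in every pair (WT knockdown 0.296 to 0.474, DNMT TKO knockdown 0.203 to 0.574), the numbers pair libraries, which is read from the values only. The same held between shEmpty libraries of WT and DNMT TKO (0.317 to 0.511). It did not hold between their shKap1 libraries (0.0974 to 0.242) or for the TET TKO pairs (-0.0253). The main model left libraries unpaired.

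The 6 genes and all gene lists were chosen with earlier results of these data known. Other genes named were *A230050P20Rik*, next in rank in DNMT TKO, the 3 most like each gene by Pearson's r, and tested genes within 100 kb. Of each list, the 4 called genes with at least 100 reads that changed most in WT were named. Genes next in rank in WT and TET TKO were not named. List genes named for a lost call were chosen after their values were seen.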

Additional observations from a re-analysis of the deposited data

Results flagged for a closer look

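For 3 results the knockdown effect differed between genotypes by a test of the difference itself. *Neb* fell in WT and not in DNMT TKO, and the effects differed by 4.77 ± 0.35 on the log2 scale (DNMT TKO minus WT, adjusted p = 5.8e-08, edgeR quasi-likelihood test). Each of the 3 DNMT TKO shKap1 libraries was above each of the 3 shEmpty libraries, and each of the 3 WT shKap1 libraries below each WT control. *Pla2g4a* differed in the same direction by 3.59 ± 0.65 (edgeR adjusted p = 7.4e-04), or 4.39 ± 0.76 without WT shKap1 replicate 3. This gene met the rule of at least 500 reads only with its WT shEmpty reads, so its p-value is not free of the choice. The knockdown of *Trim28* was itself less deep in DNMT TKO by 1.28 ± 0.21 on the log2 scale (edgeR adjusted p = 8.0e-04), and its part in both differences was not tested. *Pla2g1b* fell less in TET TKO than in WT, by 1.86 ± 0.46 (TET TKO minus WT, edgeR adjusted p = 0.021). This call was lost with limma-voom (0.057), a filter of 1 read (0.057) and without any of 5 libraries (0.05 to 0.15). *Trim28* differed by -0.06 ± 0.23 between these genotypes. No group held 4 or more libraries, so single libraries were not screened as outliers.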

How the results depend on the processing

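For the 6 genes, values were compared under all settings other than leaving out a library. Tested values were judged by direction and side of the threshold. Values given as a description were judged by direction and by lying within the SE of the main value. By these rules 220 values were kept and 4 were not, each given here or beside the result. Without a fold threshold, *Neb* in DNMT TKO (0.63) and the control level of *Pla2g1b* in TET TKO (-0.86) would be called. Values that turned sign were under 2-fold and so uncalled in both directions: *Gng2* in TET TKO against WT controls, -0.10 without WT shEmpty replicate 2 or without replicate 3 (up to 0.61 without replicate 1, adjusted p = 0.0028), and the difference of effect of *Lad1* in TET TKO, -0.23 without WT shKap1 replicate 1 (up to 0.34 without replicate 2). Genes called numbered 3529 in WT, 2533 in DNMT TKO and 2542 in TET TKO, and 9277, 7170 and 6178 without a fold threshold. For differences of effect these counts were 1450 and 3738 (DNMT TKO) and 855 and 1970 (TET TKO), and for controls 3309 and 8865, and 2127 and 5523. With the replicate block they were 3547, 2579, 2641, 1554, 994, 3362 and 2122 in that order, and the block changed no call of the 6 genes. It has only 2 pairs in TET TKO. Leaving out 1 library gave 3287 to 3588, 2260 to 2579, 1973 to 2607, 1279 to 1529, 542 to 967, 2974 to 3378 and 1658 to 2177. Integrants called lower near the 6 genes numbered 22 in WT, 19 in DNMT TKO and 5 in TET TKO. Over all integrants tested 2.05%, 0.944% and 0.971% were called lower. The counts near the 6 genes are a description. They include integrants that can count reads of a gene in the genotype that chose it. With a library left out they were 16 to 22, 16 to 20 and 1 to 5, and with the block 21, 17 and 5. With a filter of 48 reads the count in TET TKO was 3. The lowest value in TET TKO came without TET TKO shKap1 replicate 2. Of calls of neighbours and list genes, 58 repeats without a library fell under the threshold and 240 kept it, and under other filters, tools and the block 20 were lost and 416 kept. Of the 18 genes most like a member, 4 were kept by Spearman's rho and 0 after removing genotype means. Members with H3K4me3 at the start numbered 2 (70.7% of tested genes), and 1 with peaks above the median score (60.2%). Low counts limit the falls of *C330046G13Rik* and *Pla2g4a*, whose knockdown libraries in TET TKO held 4 and 2 reads.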
